A study of Mus musculus with 8 samples.

Results

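Vomeronasal type 1 receptors (V1Rs) are G-protein-coupled receptors of the apical sensory neurons of the vomeronasal organ (VNO), a nasal sense organ for pheromones. Each neuron is thought to express a single receptor gene, and V1Rs signal through the G protein subunit encoded by Gnai2. V1R genes lie in tandem arrays, and the array holding the V1ra and V1rb genes has been deleted in mice, where it altered reproductive and maternal behaviours. The genes described here are the V1R genes of chromosome 6 numbered below and above the Vmn1r32 to Vmn1r39 run. They were taken by name, as Vmn1r followed by a whole number from 4 to 31 or from 40 to 54, with entries marked as pseudogenes left out. This gave 37 of 27532 listed genes and of 207 genes named Vmn1r plus a number. The lower numbers, called the proximal range here, held 23 genes over 1.55 Mb of chromosome 6 (chr6:56924015-58475330, GRCm38, GENCODE M21 gene models). The higher numbers, the distal range, held 14 genes over 0.564 Mb (chr6:89707540-90271213). The numbers Vmn1r7, Vmn1r19, Vmn1r20, Vmn1r23, Vmn1r25 and Vmn1r53 were not analysed here.

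VNOs of 4 mice heterozygous for Tex15 and 4 Tex15 knockout mice were profiled by bulk RNA-seq of polyA RNA, 1 library per mouse, to ask how loss of Tex15 changes the neurons of this organ. Tex15 encodes a protein known in male germ cells, where it acts in the piRNA pathway that directs DNA methylation of transposons. All 8 mice were adult, and every mouse carried at least 1 altered Tex15 allele, since no wild-type mouse was among the groups. The heterozygous mice were 11.4 to 14.6 weeks old and 1 of the 4 was male, while the knockout mice were 11.9 to 12.1 weeks old and 3 of the 4 were male. Heterozygous replicates 1 and 2 had lower animal numbers, whereas the other 6 mice, all knockouts among them, came from a single higher series of numbers, called the later series here. The cells or promoter in which Tex15 was altered are not given in the sources used here.

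Expression is given in TPM, a unit that corrects for gene length and scales each library to the same total. Reads recovered from the TPM steps came to 17887000 to 26420400 per library, and 3 reads in a gene of 2 kb were worth 0.0916 to 0.163 TPM. Tex15 itself was at 2.72, 2.29, 2.81 and 2.27 TPM in heterozygous replicates 1 to 4 and at 0.870, 1.23, 1.12 and 1.14 TPM in knockout replicates 1 to 4. The groups did not overlap, and the log2 fold change, centred on the median gene, was −1.22 ± 0.38 (SE) with an adjusted p of 0.794 in limma. It passed in 1 of 26 other settings, limma-voom on recovered reads, which was added after seeing the data (adjusted p 0.0183). Which part of Tex15 was deleted is not given in the sources used here. Summed V1R expression was 310 to 938 TPM in heterozygous and 383 to 780 TPM in knockout libraries. The summed markers of apical neurons overlapped as well, at 141 to 387 and 255.9 to 365 TPM. In heterozygous replicate 1 the sum over 3 markers of mature vomeronasal neurons, Omp, Gng8 and Ano1, was 170 TPM. It was 656 to 1084 TPM in the other 7 libraries. The low sum came from Omp, at 66.6 TPM against 571 to 943 TPM in the other libraries. Gng8 and Ano1, at 78.5 and 24.5 TPM, lay within the 43.7 to 107 and 18.7 to 47.1 TPM of the other libraries. In bulk tissue, fewer neurons expressing a receptor and less RNA per neuron cannot be told apart.

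The ranges carried different V1R clades. RefSeq synonyms placed 21 of the 23 proximal genes in clade V1rc and gave no clade for Vmn1r12 and Vmn1r31, while all 14 distal genes carried V1ra or V1rb synonyms. The median pairwise identity of the coding sequences was 82.4% within the proximal range, 70.9% within the distal range and 59.6% between them. Close copies could share reads, and the authors' rule for reads that match several places is not given in the sources used here. At least 95% of the 100-base windows of the gene's transcripts were unique in 20 of 23 proximal and 10 of 14 distal genes. The lowest share was 46.0% in Vmn1r48, which shared 43.2% of its windows with Vmn1r47, and its values are therefore uncertain. The gene models of Vmn1r42 and Vmn1r43 overlap on the same strand, so reads from their shared part cannot be assigned with certainty.

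The sequences printed here are those of genes alike in sequence, shown so that their levels can be read beside them. The regions around the RefSeq starts of Vmn1r45 (chr6:89940467-89940757, minus strand) and Vmn1r51 (chr6:90122402-90122692, plus strand), GRCm38.p6, were 99.3% identical, with 2 of 291 bases different and in capitals.
Vmn1r45: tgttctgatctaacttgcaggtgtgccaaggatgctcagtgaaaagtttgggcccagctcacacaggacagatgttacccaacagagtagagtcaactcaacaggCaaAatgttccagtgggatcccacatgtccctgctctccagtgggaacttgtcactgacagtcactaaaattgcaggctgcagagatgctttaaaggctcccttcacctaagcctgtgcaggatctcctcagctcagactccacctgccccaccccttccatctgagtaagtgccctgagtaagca
Vmn1r51: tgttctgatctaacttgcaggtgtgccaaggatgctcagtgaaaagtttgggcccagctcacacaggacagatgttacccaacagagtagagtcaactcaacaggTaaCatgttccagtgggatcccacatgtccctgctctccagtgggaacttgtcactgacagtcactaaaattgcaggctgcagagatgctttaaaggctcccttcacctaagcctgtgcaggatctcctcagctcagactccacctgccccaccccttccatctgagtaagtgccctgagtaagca
The coding sequences of Vmn1r17 and Vmn1r31, the most alike in the proximal range, were 94.9% identical. In their first 120 coding bases (GENCODE M21, GRCm38) 3 bases differed, shown in capitals.
Vmn1r17: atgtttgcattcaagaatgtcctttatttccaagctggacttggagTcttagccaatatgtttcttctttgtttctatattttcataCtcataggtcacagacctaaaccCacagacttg
Vmn1r31: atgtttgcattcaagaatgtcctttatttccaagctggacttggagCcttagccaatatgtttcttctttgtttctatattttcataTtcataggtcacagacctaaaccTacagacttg
In the distal range the coding sequences of Vmn1r47 and Vmn1r48 were the most alike, at 95.2% identity. Their first 120 coding bases were identical, so the sequence is given once, with no capitals.
Vmn1r47: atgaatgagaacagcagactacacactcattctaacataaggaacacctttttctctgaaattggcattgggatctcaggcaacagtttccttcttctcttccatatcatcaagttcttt
Of 34 genes with a RefSeq promoter window, the window lay within 100 bases of the start of a GENCODE model with more than coding sequence in 3, namely Vmn1r5, Vmn1r45 and Vmn1r51. None of the 3 windows held the letters TAATTA or CCCNNGGG on either strand, which matched 5.29% and 13.7% of all 32851 windows. This says only that these letters are not in these windows.

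As shares of V1R expression, the proximal range was higher and the distal range lower in every knockout library than in any heterozygous one. The proximal range made up 10.2%, 11.2%, 10.3% and 10.6% of summed V1R TPM in heterozygous replicates 1 to 4 and 20.5%, 16.9%, 18.5% and 16.5% in knockout replicates 1 to 4. The distal range made up 7.54%, 8.71%, 9.56% and 9.34% in heterozygous and 4.19%, 3.67%, 4.02% and 3.67% in knockout libraries. The means were 10.6% ± 0.448 and 18.1% ± 1.81 (SD, n = 4 per group) for the proximal range, and 8.79% ± 0.905 and 3.89% ± 0.261 for the distal range. Of the same total, the Vmn1r32 to Vmn1r39 run between them held 15.8% and 31.2%, and the V1R genes outside Vmn1r4 to Vmn1r54 held 64.8% and 46.8%. With that run left out of the denominator, the proximal share differed by 13.8 rather than 7.55 percentage points.

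**Figure D1:**
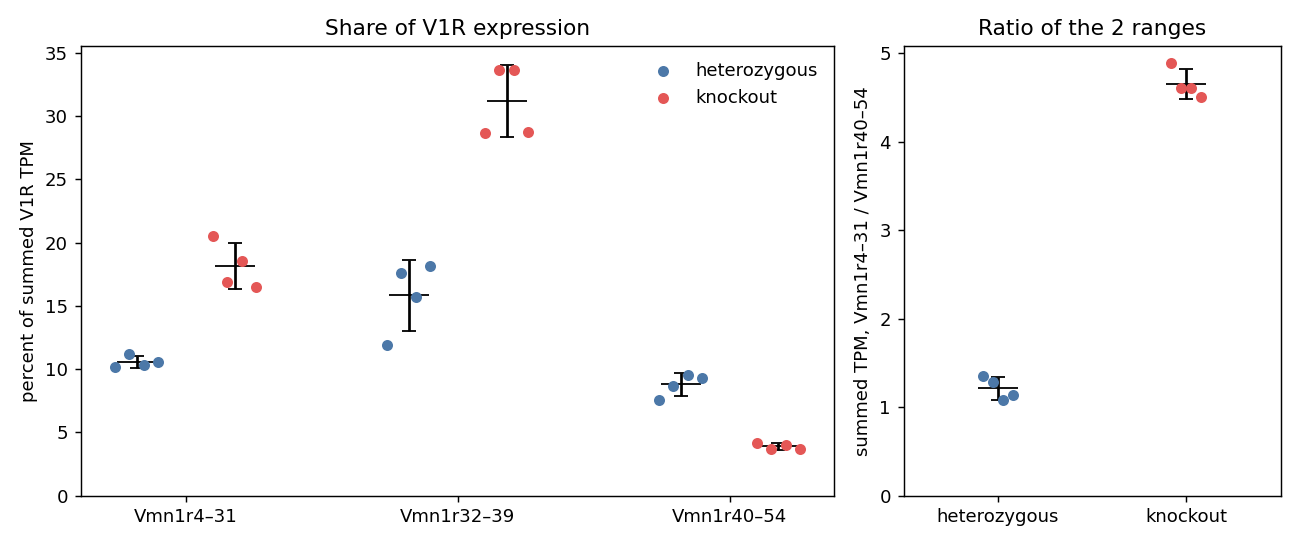
Left, percent of summed V1R TPM held by each run of genes on chromosome 6. Right, ratio of summed TPM of the proximal over the distal range. Points are libraries, with horizontal bars for means and vertical bars for SD (n = 4 per group). The ratio lies between 1.08 and 1.35 in heterozygous and between 4.51 and 4.89 in knockout libraries.

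The ratio of the 2 sums within a library is free of library scaling. The proximal sum was 1.35, 1.29, 1.08 and 1.13 times the distal sum in heterozygous replicates 1 to 4 and 4.89, 4.60, 4.61 and 4.51 times in knockout replicates 1 to 4. Every knockout library lay above every heterozygous one, with means of 1.21 ± 0.129 and 4.65 ± 0.166 (SD) and a mean log2 difference of 1.95. Among mice of the later series, 2 heterozygous females against the 4 knockouts, the log2 difference was 2.07. Much of this rested on the gene with the highest mean TPM over all 8 libraries in each range. Without Vmn1r27 and Vmn1r45 the log2 difference was 1.09, the proximal share differed by 1.48 rather than 7.55 percentage points, and the distal share by −3.07 rather than −4.90. These are sums over chosen genes and are given without a test.

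Summed TPM did not separate the groups as the shares did. The proximal sum was 34.7 to 96.5 TPM in heterozygous and 78.6 to 132 TPM in knockout libraries, and the distal sum was 27.0 to 89.7 and 16.1 to 28.7 TPM. The groups overlapped for both sums. For the distal sum this rested on heterozygous replicate 2 at 27.0 TPM, since the other heterozygous libraries, at 38.6 to 89.7 TPM, lay above all knockout libraries. That library had the lowest summed V1R expression, at 310 TPM, and the lowest sum of apical markers, at 141 TPM. Its summed markers of supporting cells, at 3135 TPM, were the highest of all libraries. The part of this in the distal sum was not tested.

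Gene by gene, 5 of the 30 members tested passed an adjusted p of 0.05 in limma, 1 higher and 4 lower in knockout, against 0.586% of all 20305 genes tested. The proximal range had 1 gene that rose, Vmn1r13, and 2 that fell, Vmn1r21 and Vmn1r31, among 17 tested. The distal range had 0 that rose and 2 that fell, Vmn1r47 and Vmn1r54, among 13 tested. At an unadjusted p under 0.05 there were 3 higher and 4 lower proximal genes, and 0 higher and 6 lower distal genes, against 1.64% higher and 1.46% lower of all tested genes. Of the 106 tested V1R genes outside Vmn1r4 to Vmn1r54, 3 were higher and 47 lower at that threshold. Among them 0 were called higher and 5 lower at the adjusted p. The median of the centred log2 fold changes was −0.17 for the tested proximal genes, where the sign was not stable (0.0494 with no sex term and 0.0502 with a filter at 1 TPM), −0.93 for the tested distal genes and −1.05 for the 106 tested V1R genes outside Vmn1r4 to Vmn1r54. Over all listed members, tested or not, the mean TPM was higher in knockout for 14 of 23 proximal and 2 of 14 distal genes, against 68.4% of all 27532 listed genes, so the proximal count is no excess of higher genes. All fold changes use log2 of TPM plus 0.5 and are centred on the median tested gene, which lay 0.19 above 0, while the p-values test the deposited scale.

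**Figure D2:**
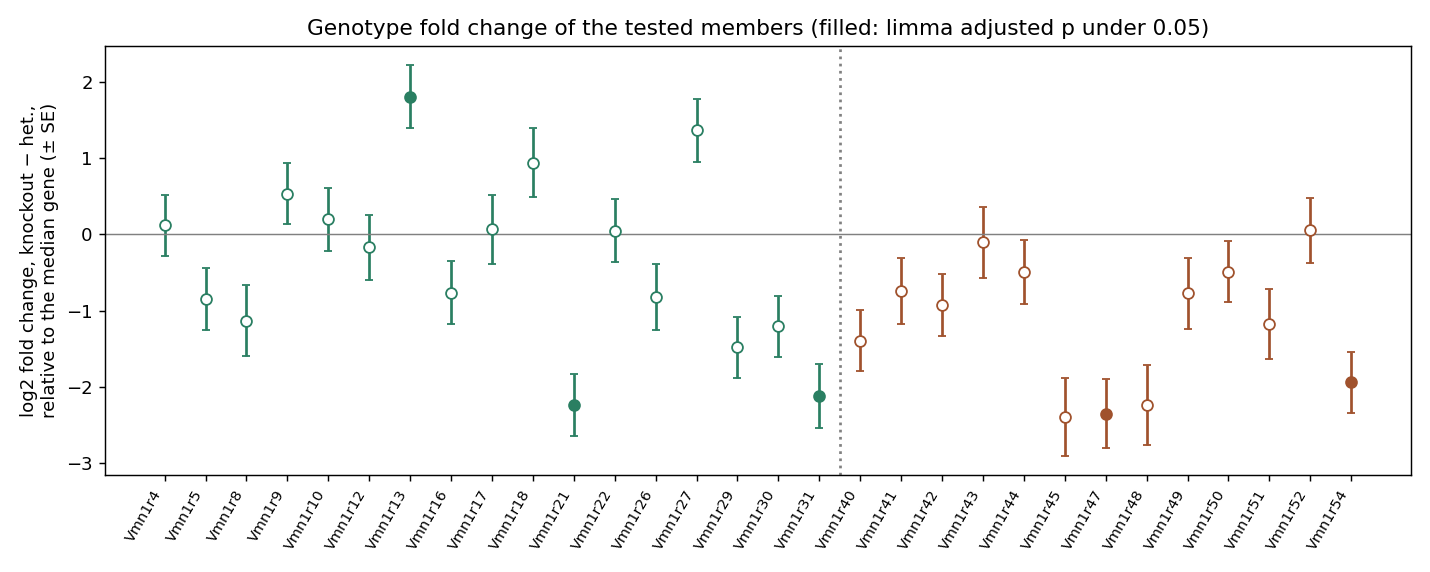
Log2 fold change, knockout minus heterozygous, centred on the median tested gene, for the 17 tested proximal genes (left of the dotted line) and 13 tested distal genes in chromosomal order. Bars are SE, and filled points passed an adjusted p of 0.05 in limma. Values run from −2.24 to 1.81 on the left and from −2.40 to 0.05 on the right.

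Members whose groups did not overlap were counted as well. Among tested genes, every knockout library lay above every heterozygous one for 2 proximal genes, Vmn1r13 and Vmn1r27, and 0 distal genes, against 0.473% of all tested genes. Every knockout library lay below for 5 proximal genes (Vmn1r5, Vmn1r21, Vmn1r29, Vmn1r30 and Vmn1r31) and 5 distal genes (Vmn1r40, Vmn1r45, Vmn1r47, Vmn1r48 and Vmn1r54), against 0.926%. Among the 106 tested V1R genes outside Vmn1r4 to Vmn1r54, 29 were lower and 2 higher without overlap. The lower counts are thus not particular to these ranges. The untested Vmn1r46 was also lower, at 0.224 to 0.935 TPM in heterozygous and 0.0649 to 0.203 TPM in knockout libraries.

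Vmn1r13 was the gene that rose. It was at 1.67, 0.998, 2.90 and 2.00 TPM in heterozygous replicates 1 to 4 and at 7.10, 10.9, 9.58 and 10.1 TPM in knockout replicates 1 to 4. The lowest knockout library was thus above the highest heterozygous one. The mean went from 1.89 ± 0.793 to 9.41 ± 1.63 TPM (SD), 4.98-fold, with a log2 fold change of 1.81 ± 0.41 (SE) and an adjusted p of 0.0210. Among mice of the later series it was 3.84-fold higher. All of its 100-base windows were unique, and it rested on 76 to 145 reads per heterozygous and 365 to 692 per knockout library.

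Vmn1r27 was the most abundant of the 37 genes. It was at 15.4, 11.1, 35.3 and 28.9 TPM in heterozygous replicates 1 to 4 and at 46.0, 58.5, 78.6 and 67.6 TPM in knockout replicates 1 to 4. The groups did not overlap, with means of 22.7 ± 11.3 and 62.7 ± 13.8 TPM, but the log2 fold change of 1.37 ± 0.41 had an adjusted p of 0.143. It passed in 10 of 26 other settings and not in the other 16, with adjusted p-values from 0.0140 to 1. Within its range its share went from 34.4% ± 4.58 to 56.2% ± 3.34, with no overlap and an exact two-sided permutation p of 0.0286, the smallest that 4 against 4 libraries allow. Vmn1r27 had the highest mean of its range in both groups. Adjusted over the 2 shares tested, 1 in each range, the p stayed at 0.0286. The pseudogene Vmn1r-ps14, which lies between Vmn1r26 and Vmn1r27, had means of 2.72 TPM and 17.5 TPM, and its log2 fold change was 2.42 and an adjusted p of 0.0382. It was the 1 called among 4 tested of 5 listed V1R pseudogene entries on chromosome 6.

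**Figure D3:**
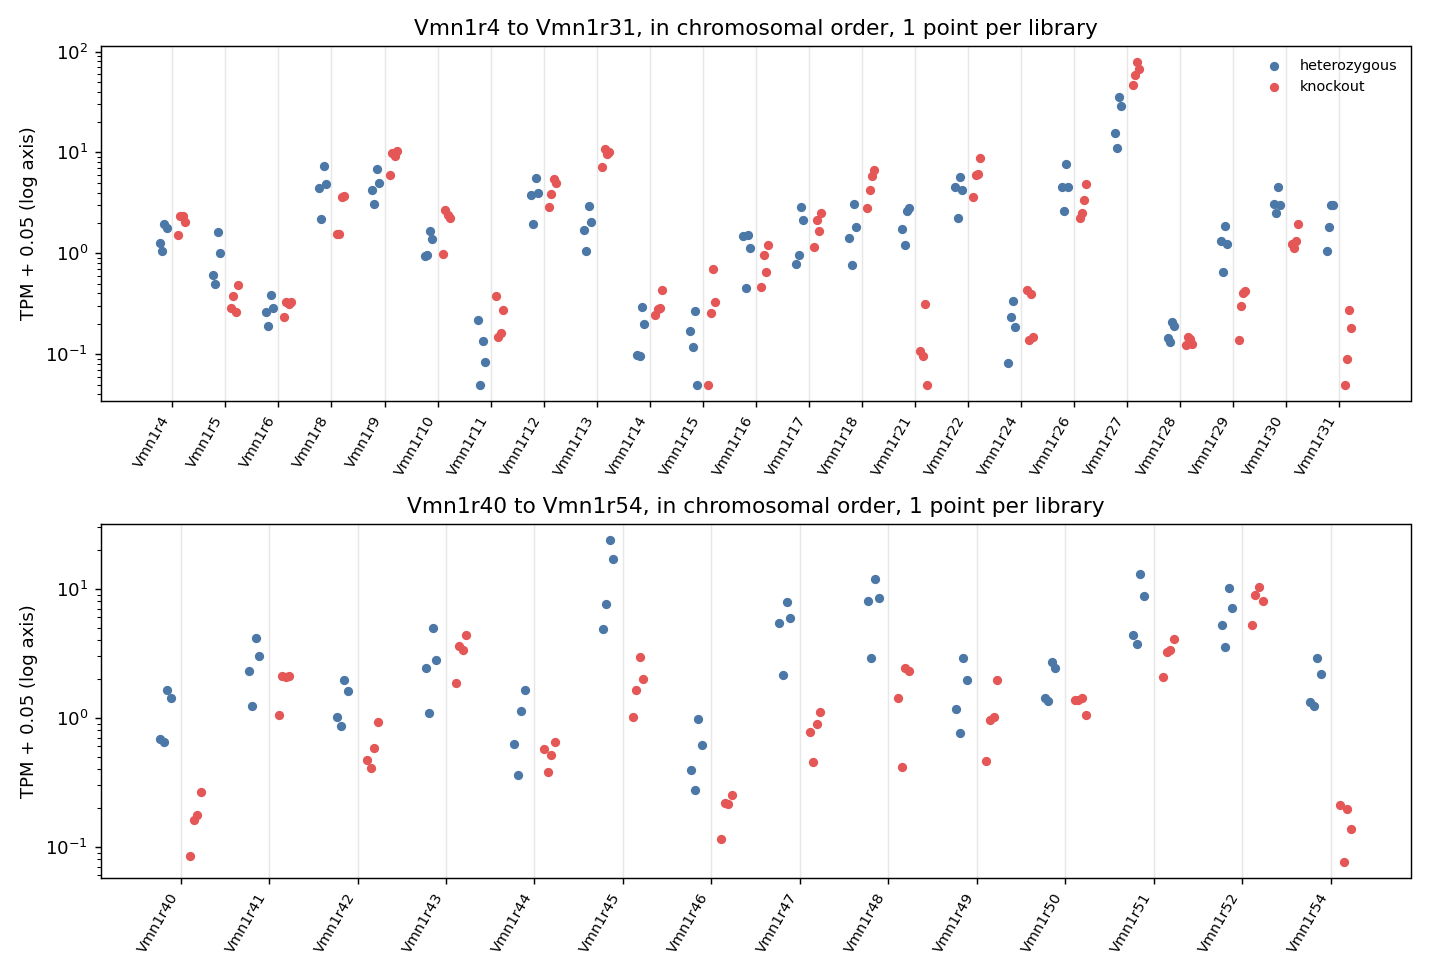
TPM of each listed gene in each library, proximal range above and distal range below, in chromosomal order on a log axis after adding 0.05. Each point is 1 library. Red points lie above all blue points for Vmn1r13 and Vmn1r27. They lie below all blue points for Vmn1r5, Vmn1r21, Vmn1r29, Vmn1r30 and Vmn1r31 in the upper panel. In the lower panel they do so for Vmn1r40, Vmn1r45, Vmn1r46, Vmn1r47, Vmn1r48 and Vmn1r54.

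In the proximal range 2 genes fell to levels close to 0. Vmn1r21 was at 1.70, 1.17, 2.55 and 2.76 TPM in heterozygous replicates 1 to 4 and at 0.0576, 0.0466, 0.262 and 0 TPM in knockout replicates 1 to 4. The groups were far apart, and the 4 knockout libraries held 7 reads of it in all. Its log2 fold change was −2.24 ± 0.41, with an adjusted p of 0.0167. Vmn1r31, the last gene of the range, was at 1.01, 1.78, 2.94 and 2.99 TPM in heterozygous and at 0, 0.0395, 0.222 and 0.133 TPM in knockout libraries. The knockout libraries held 9 reads of it in all, and the log2 fold change was −2.12 ± 0.42 with an adjusted p of 0.0323. The size of such changes near 0 TPM depends on the pseudocount. With 0.1 and 1 in place of 0.5, the log2 fold change was −3.78 and −1.59 for Vmn1r21 and −3.74 and −1.50 for Vmn1r31, and in limma-voom it was −4.77 and −4.22.

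Its close copy Vmn1r17, whose start is shown above beside that of Vmn1r31, had overlapping groups. Vmn1r17 was at 0.738, 0.903, 2.83 and 2.10 TPM in heterozygous and at 1.11, 2.09, 1.60 and 2.48 TPM in knockout libraries. Its log2 fold change was 0.06 ± 0.46 with a 95% interval of −0.89 to 1.02. About 98.0% of the windows of each gene were unique.

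Vmn1r31 closes a stretch of 3 neighbours that were lower in every knockout library. Vmn1r29 was at 0.604 to 1.82 TPM in heterozygous and 0.0874 to 0.377 TPM in knockout libraries, with a log2 fold change of −1.48 ± 0.40 and an adjusted p of 0.358. Vmn1r30 was at 2.43 to 4.51 and 1.08 to 1.92 TPM, for a log2 fold change of −1.21 ± 0.40 and an adjusted p of 0.987. Vmn1r29 passed in 2 of 25 other settings and Vmn1r30 in 1 of 26. The nearest tested gene before them, Vmn1r27, was higher in every knockout library.

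Most other proximal genes had overlapping groups. Vmn1r9 was at 3.01 to 6.76 TPM in heterozygous and 5.94 to 10.4 TPM in knockout libraries, with a log2 fold change of 0.53 ± 0.40. Vmn1r18 was at 0.718 to 3.03 and 2.76 to 6.71 TPM, for a log2 fold change of 0.94 ± 0.45 and an unadjusted p of 0.0213 in limma. Vmn1r12 and Vmn1r22 lay near the median gene, with log2 fold changes of −0.17 ± 0.42 and 0.05 ± 0.42, as did Vmn1r4, with 0.12 ± 0.40. With 1 library left out, the value of Vmn1r22 ran from 0.0076 to 0.517. In the other direction, Vmn1r8 was at 2.13 to 7.36 and 1.49 to 3.63 TPM, for a log2 fold change of −1.13 ± 0.46 and an unadjusted p of 0.0567 in limma. Vmn1r26 and Vmn1r16 had log2 fold changes of −0.82 ± 0.44 and −0.77 ± 0.41. Vmn1r5, whose groups did not overlap, was at 0.447 to 1.57 and 0.213 to 0.437 TPM, for a log2 fold change of −0.85 ± 0.41. The 6 genes below the mean of 0.5 TPM needed for the test were Vmn1r6, Vmn1r11, Vmn1r14, Vmn1r15, Vmn1r24 and Vmn1r28. Among them Vmn1r14 had mean levels of 0.122 and 0.262 TPM in heterozygous and knockout mice.

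Both distal genes that passed were lower in knockout mice. Vmn1r47 was at 5.37, 2.11, 7.88 and 5.85 TPM in heterozygous replicates 1 to 4 and at 0.730, 0.406, 0.845 and 1.05 TPM in knockout replicates 1 to 4. The highest knockout library was below the lowest heterozygous one, with a log2 fold change of −2.35 ± 0.46 and an adjusted p of 0.0274. Vmn1r54, the last gene of the range, was at 1.27, 1.18, 2.86 and 2.15 TPM in heterozygous and at 0.160, 0.0258, 0.145 and 0.0870 TPM in knockout libraries. The knockout libraries held 14 reads of it in all, and the log2 fold change of −1.94 ± 0.40 just passed, with an adjusted p of 0.0498. Here too the size moved with the pseudocount, to −3.17 with 0.1 and −1.39 with 1, neither of which passed, and it was −4.01 in limma-voom.

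Vmn1r45 was the most abundant distal gene in heterozygous mice. It was at 4.81, 7.52, 23.9 and 17.1 TPM in heterozygous replicates 1 to 4 and at 0.960, 1.60, 2.90 and 1.93 TPM in knockout replicates 1 to 4. Heterozygous replicates 3 and 4 were high and replicates 1 and 2 lower, yet no library crossed between the groups. The mean went from 13.3 ± 8.82 to 1.85 ± 0.808 TPM, and the log2 fold change was −2.40 ± 0.51 and an adjusted p of 0.0575. It passed in 20 of 26 other settings, with adjusted p-values from 1.7e-04 in mice of the later series to 0.817. With the sex term, the log2 fold change was −3.30 without heterozygous replicate 1 and −1.50 without knockout replicate 1, where the adjusted p was 0.00863 and 0.817. Its share of the distal range was 23.4% ± 7.31 and 7.41% ± 1.83. Since its rank as the most abundant distal gene came from its heterozygous level, this share is given without a test.

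Vmn1r51, whose start region is 99.3% identical to that of Vmn1r45, had overlapping groups. It was at 4.37, 3.71, 13.0 and 8.81 TPM in heterozygous replicates 1 to 4 and at 2.02, 3.21, 3.29 and 4.06 TPM in knockout replicates 1 to 4. Knockout replicate 4 lay within the heterozygous range. The log2 fold change was −1.18 ± 0.46, with an unadjusted p of 0.0470 in limma and an adjusted p of 0.9995. With the sex term it was −1.61 without heterozygous replicate 1 and −0.74 without knockout replicate 1, and it passed in 1 of 26 other settings, mice of the later series alone (adjusted p 0.0237). The difference between the 2 genes was not tested.

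Vmn1r48, the copy of Vmn1r47 noted above, was at 7.997, 2.84, 11.9 and 8.50 TPM in heterozygous and at 1.36, 0.367, 2.38 and 2.27 TPM in knockout libraries. The groups did not overlap, with a log2 fold change of −2.25 ± 0.52 and an adjusted p of 0.116. The 4 neighbours from Vmn1r45 to Vmn1r48 were thus all lower in every knockout library, the untested Vmn1r46 included. Since Vmn1r48 shared 43.2% of its windows with Vmn1r47, the values of this pair may not be separate. At the start of the range, Vmn1r40 was at 0.602 to 1.59 and 0.0343 to 0.218 TPM, for a log2 fold change of −1.40 ± 0.40 and an adjusted p of 0.505. Vmn1r49, known as V1rb2 and described as a receptor for the urinary pheromone 2-heptanone, was at 0.710 to 2.85 and 0.412 to 1.93 TPM, with overlapping groups and a log2 fold change of −0.77 ± 0.46.

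Vmn1r52 was the most abundant distal gene in knockout mice. It was at 5.16, 3.496, 10.1 and 7.00 TPM in heterozygous replicates 1 to 4 and at 5.21, 8.96, 10.2 and 7.999 TPM in knockout replicates 1 to 4. The groups overlapped, and the log2 fold change was 0.05 ± 0.42 with a 95% interval of −0.83 to 0.94. Its share of the distal range was 12.1% ± 1.22 in heterozygous and 33.6% ± 4.42 in knockout mice, while that of Vmn1r51 was 13.3% and 13.0%.

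Expression within each range was spread over fewer genes in knockout mice. The effective number of genes, the exponential of the Shannon entropy of their shares, went from 11.1 ± 0.854 to 5.71 ± 0.489 in the proximal range and from 9.65 ± 0.312 to 8.12 ± 0.866 in the distal range. The groups did not overlap in either. Genes at 0.5 TPM or more numbered 15 to 17 in heterozygous and 12 to 14 in knockout libraries for the proximal range, and 12 to 14 and 7 to 11 for the distal range.

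**Figure D4:**
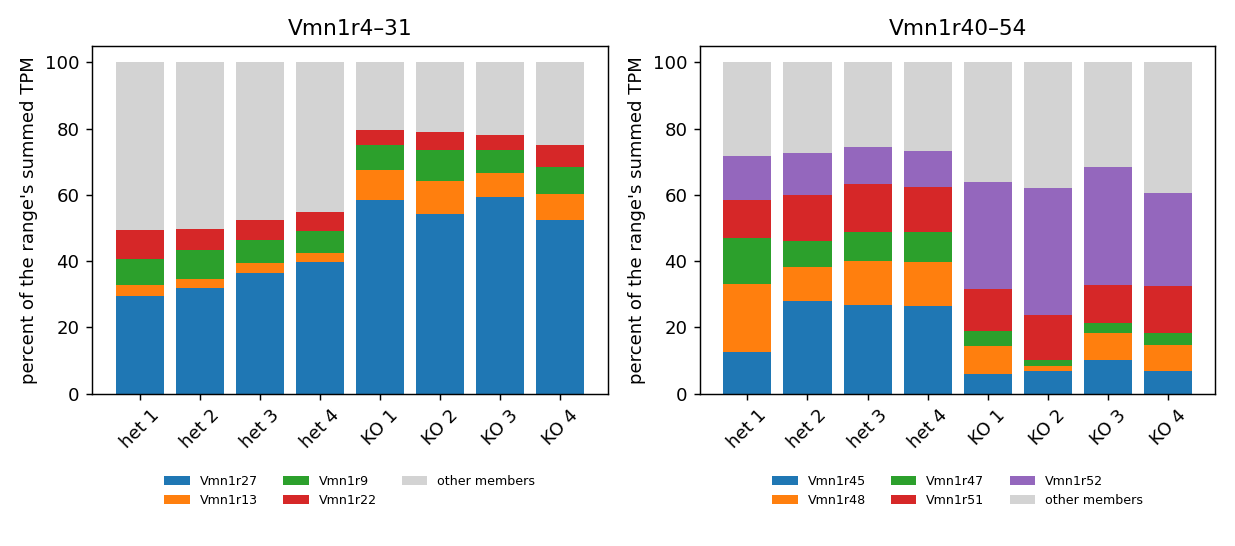
Stacked bars of the percent of each range's summed TPM held by its named genes in each library (het, heterozygous; KO, knockout), with all other members in grey. Vmn1r27 takes 29.5% to 39.6% of the proximal range in heterozygous and 52.5% to 59.4% in knockout libraries, and in the distal range Vmn1r45 takes 12.4% to 27.8% and 5.97% to 10.1%.

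Neighbouring genes of other families were not called. Within the proximal span 7 other genes were tested and 0 were called or free of overlap, and within 1 Mb on either side the same held for 15. Within 1 Mb of the distal span 24 were tested with 0 called. At an unadjusted p under 0.05 in limma there were again 0 in each of these sets. Over all tested genes, 0.586% were called, and 0.473% were higher and 0.926% lower in knockout without overlap. At the unadjusted p, 1.64% were higher and 1.46% lower. Sets this small can hold 0 at such shares, so these counts say little about the neighbours. Inside the distal span V1ra8, a V1R gene under another name, had a log2 fold change of 0.14 ± 0.42. Of 16 genes of V1R signalling and apical neuron identity, 15 were tested, 0 were called, and their lowest adjusted p was 0.702. Gnai2 was at 214 ± 85.2 and 248 ± 46.7 TPM. Omp, a marker of mature neurons, was the 1 with an unadjusted p under 0.05, at a fitted log2 fold change of 1.28. Heterozygous replicate 1 stood apart for this gene, at 66.6 TPM against 627 to 943 TPM in the other 3 heterozygous libraries. The group means were 620 and 678 TPM with overlapping groups, and the genotype-by-sex term had an adjusted p of 0.00288 in limma, with a single male in the heterozygous group, that same replicate.

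The calls depended on the expression filter, on the sex term and on single libraries. With no filter on mean TPM, the calls of Vmn1r13, Vmn1r31, Vmn1r47 and Vmn1r54 ended. A filter at 1 TPM also ended that of Vmn1r31. With sex in the model, leaving out 1 library ended the call of Vmn1r13 without heterozygous replicate 1 (adjusted p 0.642) or knockout replicate 1, 2 or 3 (0.113, 0.0600 and 0.0520). It ended that of Vmn1r21 without heterozygous or knockout replicate 1 (0.158 and 0.327), and that of Vmn1r31 without knockout replicate 1 or 2 (0.817 and 0.0674). The same held for Vmn1r47 without heterozygous replicate 1 or knockout replicate 1 or 2 (0.362, 0.209 and 0.0666), and for Vmn1r54 without heterozygous replicate 1 or 3 (0.327 and 0.0545) or knockout replicate 1, 2 or 3 (0.727, 0.115 and 0.0814). Heterozygous replicate 1 is the 1 male of its group and knockout replicate 1 the 1 female. Without the sex term, all 5 genes passed in each of the 8 omissions, with adjusted p-values of at most 0.0421.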

How the data were processed

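PolyA RNA from dissected vomeronasal organs was sequenced as paired 150-base reads from directional libraries, per the labels' protocols. The values are TPM per gene as deposited by the authors. The submitters' processing notes name Trim Galore 0.6.5, cutadapt 5.1, STAR 2.7.11b, deepTools 3.5.5 and the builds mm10 and GRCm38, without roles. The counting program, its use of strand and its rule for multiply matching reads are not given in the sources used here. All sample columns were used (0 left out).

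The members and gene lists were chosen with earlier results of these data known. The 20305 genes that reached 0.5 TPM on average were tested with limma 3.58.1 (trend) in R 4.3.3 on log2(TPM + 0.5), with terms for sex and genotype, and Benjamini-Hochberg adjustment over all of them. The test was tried on simulated data first. Each mouse is 1 sample, so p-values measure the spread between mice. Fold changes were centred on the median tested gene. Whole reads were recovered from TPM times GENCODE M21 exon length, with 97.8% to 98.3% of low values whole within 0.05 of a read, and limma-voom on them was added after seeing the data. It called 1 higher and 3 lower proximal genes and 0 higher and 2 lower distal genes. Depth limits low genes, and recovered read numbers cover counting error only. Named genes were Tex15, members called, members whose groups do not overlap, and the most abundant members and largest differences of each range. Replicate numbers did not pair the mice. Sums over members and their shares carry no test. The share of its range held by the gene with the highest mean over all libraries was tested by exact permutation in each range. The distal test is not used, since that gene leads through the heterozygous group alone. Vmn1r8, Vmn1r16, Vmn1r17, Vmn1r26, Vmn1r43 and Vmn1r49 and the pseudogene were named after their values were seen.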

Additional observations from a re-analysis of the deposited data

Results flagged for a closer look

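In heterozygous replicate 1, Vmn1r45 held 12.4% of the summed TPM of the distal range, whereas the other 3 heterozygous libraries lay between 26.5% and 27.8%. This library lay far from the others of its group by Dixon's criterion for 4 samples, which chance meets in about 1 of 20 groups. The same library had the lowest sum of mature neuron markers, at 170 TPM, through a low level of Omp, at 66.6 TPM. Gng8 and Ano1, the other markers in that sum, were not lowest in this library. The part of this in the result was not tested.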

How the results depend on the processing

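The direction of the 5 called genes, and of Vmn1r27, Vmn1r45 and Vmn1r48, held in each alternative fit run for them. Counts of calls moved more. Proximal genes called higher went from 1 to 0 with no filter and to 2 with median-ratio scaling, no sex term, robust variance or a replicate block, and 0 to 2 were called when 1 library was left out. Proximal genes called lower went from 2 to 1 with no filter or a filter at 1 TPM, to 4 with median-ratio scaling and to 0 to 2 with 1 library left out. Distal genes called lower went from 2 to 1 with a pseudocount of 0.1 or 1, to 0 with no filter, to 4 with no sex term or robust variance, to 5 in the later series and to 0 to 4 with 1 library left out. In the paired fit with a replicate block, Vmn1r27 (adjusted p 0.0446), Vmn1r45 (0.0160) and Vmn1r48 (0.0194) passed and Vmn1r54 (0.0786) did not, although the numbers share no source in the labels. Across all genes it called 128 against 119, and the correlations of same-numbered mice ran from −0.06 to 0.10.

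The proximal median, −0.17, changed sign to 0.0502 with a filter at 1 TPM and to 0.0494 with no sex term. With 1 library left out it ran from −0.443 to 0.167, and without the sex term it was 0.108, 0.0316, 0.167 and 0.00483 without heterozygous replicates 3 and 4 and knockout replicates 1 and 4. Vmn1r12 changed sign to 0.0528 with no sex term and to 0.0484 in the later series. Without the sex term it was 0.158, 0.0776 and 0.0316 without heterozygous replicates 1, 3 and 4, and 0.167 and 0.0679 without knockout replicates 1 and 4. Vmn1r52 was −0.186 and −0.0029 without heterozygous replicates 1 and 2 and −0.037 without knockout replicate 2, with the sex term. The cause of these shifts was not tested. Without the Vmn1r32 to Vmn1r39 run in the denominator the proximal share differed by 13.8 percentage points. Without the gene of highest overall mean in each range the shares differed by 1.48 and −3.07 points, the log2 ratio by 1.09 and the effective numbers by −3.60 and −2.44. In the later series the log2 ratio differed by 2.07, and with shares of reads the proximal effective number differed by −4.61.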
